A study of Drosophila melanogaster with 12 samples.

Results

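Cytochrome P450 genes were described in heads of day 10 adult Drosophila with and without pathogenic human tau. Members were all genes whose symbol begins with Cyp, then digits and a lower-case letter, which leaves out the cyclophilins. Of 13970 genes in the isoform table, 83 met this rule, with 115 of the 30738 listed isoforms. Tau transgenic flies (elav-Gal4/+;UAS-tauR406W/+) carried a UAS-tauR406W transgene, human tau with a mutation of frontotemporal dementia, driven by elav-Gal4, which is active in neurons. Controls (elav-Gal4/+) carried the driver alone, so both genotypes share the driver. Each genotype had 3 nanopore direct RNA libraries, each from a pool of 500 heads, and each pool counts as 1 sample. A head pool holds many tissues, among them brain, retina, fat body, cuticle, antennae and blood cells. Fewer cells of a type and less RNA per cell therefore cannot be told apart in any value given here. Nothing in the labels ties the pools to separate crosses, so the p-values measure the spread between these pools.

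P450 enzymes are heme proteins that insert an oxygen atom into small lipid-soluble molecules, using electrons handed on by a reductase. In insects they make and break down hormones, build cuticular hydrocarbons and detoxify plant compounds and insecticides. Most sit in the endoplasmic reticulum and take electrons from NADPH-cytochrome P450 reductase, whereas those of the mitochondrial clan are served by adrenodoxin reductase and ferredoxin. The genes fall into families by number and into 4 clans, of which CYP3 (families 6, 9 and 28 among others) is best known for detoxification and CYP4 (family 4 and its relatives) for oxidation of fatty acids and related lipids.

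Between 573001 and 1329914 reads were assigned to isoforms per library. Values are TPM (transcripts in each 1000000) from NanoCount, here a share of reads that is not divided by transcript length, because 1 read stands for about 1 RNA molecule. A single read was worth 0.752 to 1.46 TPM in tau libraries and 1.10 to 1.75 TPM in control libraries, and 3 reads, used as the floor of detection, were worth 2.26 to 5.24 TPM. Isoform values were summed per gene, and the 8963 genes with a mean of at least 5 TPM were tested. Neuronal markers summed to 377 to 644 TPM in tau heads and 482 to 639 TPM in control heads, and glial markers to 1048 to 1469 TPM in tau heads and 1087 to 1360 TPM in control heads, although elav itself was at or under 2.63 TPM in all 6 libraries. Photoreceptor markers summed to 44426 to 52272 TPM in tau heads and 39030 to 43515 TPM in control heads. Most of this was ninaE, with means of 29759 TPM in tau heads and 23587 TPM in control heads. The rhodopsins (ninaE, Rh3, Rh4, Rh5 and Rh6) were higher without overlap, beside 6.11% of all genes. Arr1, Arr2, ninaC, trp and norpA overlapped, with log2 fold changes of -0.08 to 0.01. Of the 10 markers only Rh4 passed the test, as higher in tau, though not without control library 3 (adjusted p = 0.0851 in limma). The oenocyte markers eloF and FASN3 summed to 5.84, 41.4 and 8.78 TPM in tau libraries, against 35.1, 31.6 and 24.4 TPM in control libraries. These overlapped only through tau library 2.

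The P450 genes as a whole took a smaller share of the transcriptome in tau heads. Their summed level was 6532, 6665 and 5459 TPM in tau libraries, against 7647, 9072 and 9723 TPM in control libraries. Every tau library was below every control library, and the tau mean was 0.706 of the control mean. In shares of all TPM this was 0.622% ± 0.0661 in tau heads and 0.881% ± 0.106 in control heads (SD, n = 3 each). The separation rested on a single gene and on the scale of the libraries. Without Cyp4g1 the sums were 4814, 4936 and 4428 TPM in tau libraries, against 4786, 6636 and 5907 TPM in control libraries, and the genotypes overlapped. After division by trimmed-mean scaling factors, an alternative chosen after seeing the data, the sums over all 83 genes were 7160, 6522 and 5394 in tau libraries and 6987, 9240 and 9856 in control libraries, which also overlapped.

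**Figure D1:**
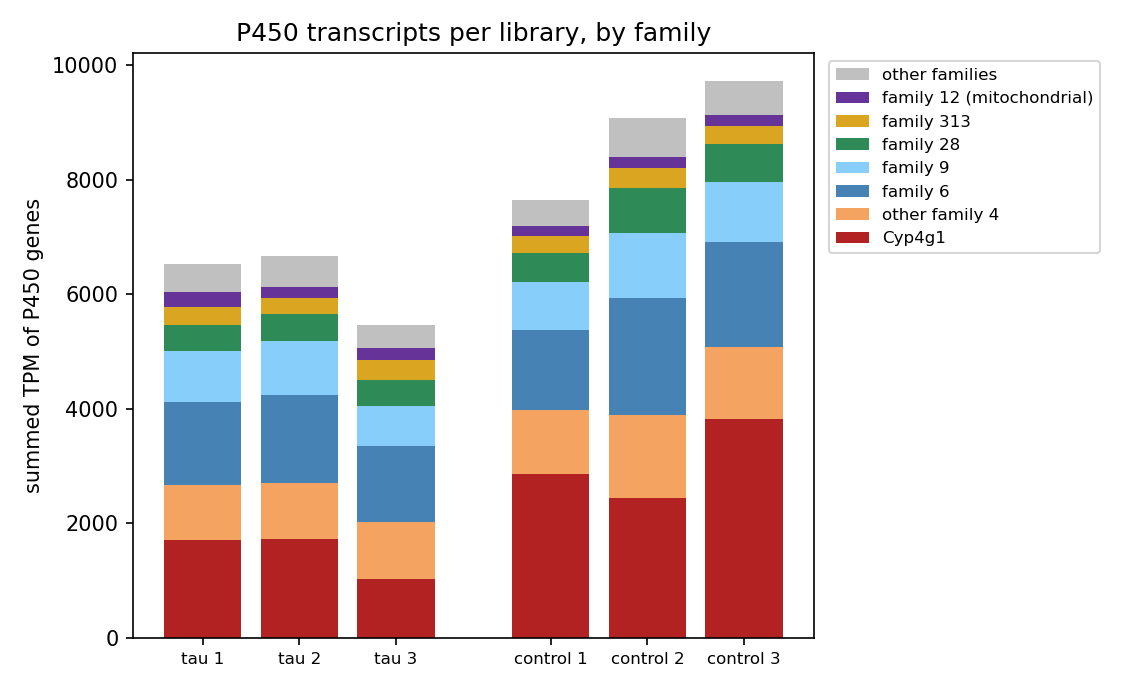
Summed TPM of the 83 P450 genes in each library (vertical axis, TPM), stacked by family, with the 3 tau libraries on the left and the 3 control libraries on the right. Cyp4g1, at the base of each bar, lies between 1032 and 1729 TPM in tau libraries and between 2435 and 3815 TPM in control libraries.

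By clan, CYP4 genes summed to 3173, 3163 and 2532 TPM in tau libraries, against 4444, 4437 and 5555 TPM in control libraries. This clan did not overlap between genotypes, with or without scaling. Without Cyp4g1 its other 31 genes summed to 1455, 1434 and 1501 TPM in tau libraries, against 1583, 2002 and 1740 TPM in control libraries. Family 4 without Cyp4g1 overlapped after scaling. CYP3 genes summed to 2899, 3072 and 2546 TPM in tau libraries and 2831, 4108 and 3656 TPM in control libraries, which overlapped. The mitochondrial clan went the other way, with 259, 204 and 213 TPM in tau libraries, against 178, 191 and 195 TPM in control libraries, a ratio of 1.20. There was no overlap on either scale, though after scaling the nearest libraries stood at 199.4 in tau and 198.1 in control. This rise rested on Cyp12c1 (means of 55.8 TPM in tau heads and 24.5 TPM in control heads) and Cyp12d1-d (14.9 TPM and 0.366 TPM). The 4 genes of clan CYP2 overlapped, at 168 to 226 TPM in tau libraries and 194 to 336 TPM in control libraries.

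Levels within the family spanned a wide range. Of the 83 genes, 60 had a mean of at least 5 TPM, 31 at least 50 TPM, 15 at least 100 TPM and 1 at least 1000 TPM. The 23 genes below the minimum were not tested. Of these, 14 stood at or under 3 reads in every library, and Cyp303a1, Cyp313a2, Cyp313a3, Cyp313a5 and Cyp316a1 were listed at 0 in all 6. The ecdysteroid-producing P450 genes, which carry names outside the rule (phm, dib, sad, shd, spo and spok), were also all under the minimum, with means of at most 3.48 TPM.

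Cyp4g1 stood far above the rest. It encodes the enzyme, known from oenocytes, that makes cuticular hydrocarbons from long-chain aldehydes. Which cells of these heads hold its transcripts was not tested. Its level was 1717, 1729 and 1032 TPM in tau libraries, against 2860, 2435 and 3815 TPM in control libraries. Both genotypes ranked it first, and it made up 23.7% ± 4.17 of P450 TPM in tau heads and 34.5% ± 6.69 in control heads (SD, n = 3 each). Every tau library was below every control library, by a log2 fold change of -1.04 ± 0.19 (SE; adjusted p = 0.0177, limma with Benjamini-Hochberg adjustment over all 8963 genes). Without control library 3, the highest, the log2 fold change was -0.86 and the call was lost (adjusted p = 0.151). Its relative Cyp4g15, the other family 4 member of the G subfamily and known from the nervous system, was at 92.8 ± 6.07 TPM in tau heads and 81.3 ± 13.5 TPM in control heads (SD, n = 3 each), with overlap.

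The other abundant P450 genes differed less. Cyp9f2, the second in rank, was at 462, 455 and 380 TPM in tau libraries, against 392, 511 and 518 TPM in control libraries. Cyp6d5 was at 408, 391 and 375 TPM in tau libraries, against 280, 490 and 401 TPM in control libraries. Cyp313a1 was at 311.2, 268 and 359 TPM in tau libraries, against 303.1, 358 and 319 TPM in control libraries. These genes overlapped between genotypes, with log2 fold changes of -0.13, 0.04 and -0.07 and adjusted p-values of at least 0.915 in limma. Cyp6w1 was at 289, 252 and 255 TPM in tau libraries, against 275, 379 and 356 TPM in control libraries. Cyp9b2 was at 244, 329 and 206 TPM in tau libraries, against 273, 359 and 305.4 TPM in control libraries. Cyp4e2 was at 196, 220 and 182 TPM in tau libraries, against 214, 288 and 232 TPM in control libraries. All of these overlapped as well. Cyp4d21, also named sxe1 and known for its sex-dependent level in heads, was at 180, 144 and 229 TPM in tau libraries and 201, 275 and 220 TPM in control libraries, which overlapped.

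The remaining members among the 10 with the highest means, Cyp28d1 and Cyp6a13, did not overlap but missed the threshold. Cyp28d1, of a family known to respond to plant alkaloids, was at 262, 282 and 223 TPM in tau libraries, against 344, 530 and 396 TPM in control libraries (log2 fold change -0.71, adjusted p = 0.0683 in limma). Cyp6a13 was at 174, 148 and 132 TPM in tau libraries, against 177, 302.7 and 286 TPM in control libraries (log2 fold change -0.72, adjusted p = 0.163 in limma). Both passed without control library 1, with adjusted p-values of 0.0294 for Cyp28d1 and 0.0131 for Cyp6a13.

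Of the 60 P450 genes tested, 8 passed an adjusted p of 0.05, or 13.3%, against 1.08% of all 8963 genes tested. Of these, 3 were higher in tau heads (0.636% of all genes) and 5 were lower (0.446% of all genes). The 3 higher genes were Cyp12d1-d, Cyp6d2 and Cyp6a17, and the 5 lower genes were Cyp6a23, Cyp4p1, Cyp9c1, Cyp4g1 and Cyp6a20. Cyp12d1-d reached the minimum for a test only through its tau libraries. The median log2 fold change was -0.27 over the 60 members, beside -0.04 over all genes tested, and 37 members (61.7%) lay below 0, beside 54.7% of all genes. Genotypes did not overlap for 22 of the 60 members, with 6 higher and 16 lower in tau heads. Over all genes 13.0% did not overlap, 6.11% higher and 6.93% lower. After trimmed-mean scaling, chosen after seeing the data, 19 members did not overlap, 7 higher and 12 lower, beside 13.3% of all genes. The calls depended on the mean-variance trend in limma. Without it, 4 of all genes passed, of which Cyp12d1-d was the only P450 gene. Cyp6a23, Cyp4p1 and Cyp6d2 passed whichever library was left out. In all, 4 members passed without tau library 3, beside 0.558% of all genes, and 4 without control library 3, beside 0.357% of all genes.

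**Figure D2:**
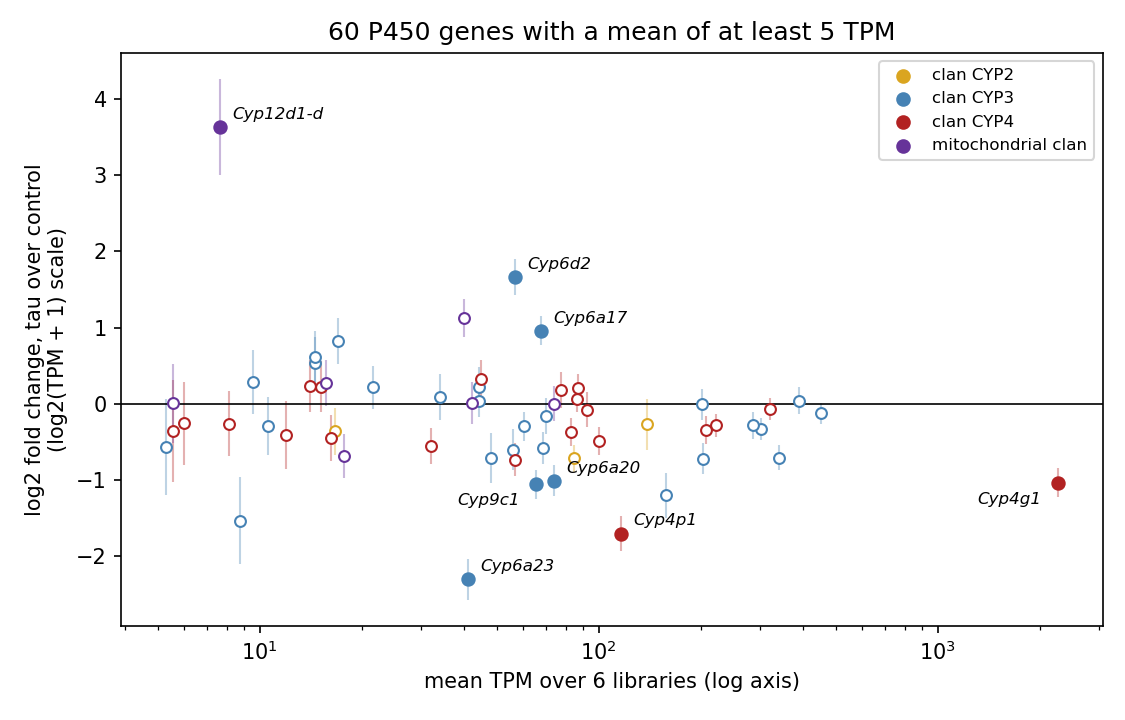
Log2 fold change of tau over control (vertical axis, on the log2(TPM + 1) scale, with SE bars) against the mean TPM of the 6 libraries (horizontal axis, log scale) for the 60 P450 genes tested, coloured by clan. Filled points are the 8 genes with an adjusted p of 0.05 or less, from 3.63 for Cyp12d1-d to -2.31 for Cyp6a23.

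Among P450 genes the largest fall was that of Cyp6a23. It was at 11.7, 17.3 and 10.7 TPM in tau libraries, against 70.3, 82.9 and 54.1 TPM in control libraries, so that the highest tau library was below the lowest control library. The control mean was 5.22 times the tau mean, and the log2 fold change was -2.31 ± 0.27 (SE, adjusted p = 0.000863 in limma). These levels rested on 8, 23 and 11 reads in tau libraries and 64, 63 and 31 reads in control libraries.

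Its immediate neighbour Cyp6a17, known from its requirement for normal temperature preference in flies, went in the opposite direction. It was at 80.4, 91.0 and 97.6 TPM in tau libraries, against 40.6, 51.3 and 45.4 TPM in control libraries, with no overlap. The log2 fold change was 0.96 ± 0.19 (SE, adjusted p = 0.0263 in limma). This call was lost without tau library 2 (adjusted p = 0.115), tau library 3 (adjusted p = 0.173), control library 1 (adjusted p = 0.0748) or control library 3 (adjusted p = 0.126). Cyp6a17 and Cyp6a23 are close copies of each other that lie next to each other on chromosome arm 2R (14873953 to 14875739 and 14875829 to 14877654, dm6 coordinates). Both stood at whole reads in every library, 26 to 121 for Cyp6a17 and 8 to 64 for Cyp6a23, so none was shared out in fractions. Whether whole reads were counted for the wrong copy was not tested. The sum of the pair was 92.1, 108 and 108 TPM in tau libraries and 111, 134 and 99.5 TPM in control libraries, which overlapped (difference -0.15 on the log2 scale, two-sided exact permutation p = 0.4). Within the pair, Cyp6a17 took 87.3%, 84.0% and 90.1% in tau libraries, against 36.6%, 38.2% and 45.6% in control libraries (two-sided exact permutation p = 0.1, the smallest that 3 against 3 allows). The sum of the pair thus overlapped between genotypes, whereas its make-up did not. A test of 3 against 3 cannot show that the sum was unchanged. Both genes are known to vary in copy number between fly strains, and copy number was not measured here.

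Cyp4p1 (2R, 9240041 to 9242139) fell to 38.0, 59.4 and 65.4 TPM in tau libraries, against 142, 226 and 168 TPM in control libraries. All tau libraries were under the lowest control library, and the log2 fold change was -1.71 ± 0.23 (SE, adjusted p = 0.00274 in limma). Its neighbours on both sides, Cyp4p2 and Cyp4p3, had log2 fold changes of 0.23 and 0.22, with overlap and adjusted p-values of 0.956 and 0.957. Cyp4p2 averaged 15.3 TPM in tau heads and 12.8 TPM in control heads. Cyp4p3 averaged 16.5 TPM in tau heads and 13.9 TPM in control heads.

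Cyp9c1 (2R, 24631063 to 24632923) was at 46.8, 43.6 and 36.1 TPM in tau libraries, against 86.7, 97.4 and 82.0 TPM in control libraries (log2 fold change -1.06 ± 0.19 SE, adjusted p = 0.0158 in limma). The groups did not overlap. The call was lost without tau library 2 (adjusted p = 0.052), tau library 3 (adjusted p = 0.0987), control library 2 (adjusted p = 0.0763) or control library 3 (adjusted p = 0.0869). The other 4 tested genes of family 9 (Cyp9f2, Cyp9b2, Cyp9b1 and Cyp9h1) had log2 fold changes below 0, as did 54.7% of all genes. They overlapped and did not pass.

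Cyp6a20, a gene of olfactory support cells whose loss raises male aggression in flies, was at 39.5, 60.2 and 46.8 TPM in tau libraries, against 94.4, 111 and 90.8 TPM in control libraries. There was no overlap, and the log2 fold change was -1.02 ± 0.20 (SE, adjusted p = 0.0288 in limma). Among the fits that left out a library, the call held only without tau library 2. It was lost without tau library 1 (adjusted p = 0.0693) or 3 (adjusted p = 0.122) and without control library 1 (adjusted p = 0.0632), 2 (adjusted p = 0.123) or 3 (adjusted p = 0.118). The 4 markers of olfactory support cells (lush, Obp28a, Obp83a and Obp83b) summed to 106 to 174 TPM in tau heads and 143 to 281 TPM in control heads, none was called, and their part in the result was not tested.

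Cyp6d2 (2R, 22652573 to 22654530), which flies need to survive the toxin camptothecin, showed a rise that passed whichever library was left out. It was at 78.9, 112 and 69.3 TPM in tau libraries, against 22.0, 27.6 and 29.7 TPM in control libraries, and the lowest tau library was above the highest control library. The tau mean was 3.28 times the control mean, with a log2 fold change of 1.66 ± 0.23 (SE, adjusted p = 0.00384 in limma). Its nearest relatives by name did not share this size of difference. Cyp6d5 was at a log2 fold change of 0.04, and Cyp6d4, at 17.7 ± 2.31 TPM in tau heads and 11.5 ± 3.79 TPM in control heads (SD, n = 3 each), was at 0.62 (adjusted p = 0.723 in limma).

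Cyp12d1-d had the largest rise among all genes tested, at low levels. This mitochondrial P450 (2R, 11123658 to 11125647), one of a pair of near-identical genes induced by many foreign compounds, was at 13.7, 16.6 and 14.4 TPM in tau libraries, against 1.10, 0 and 0 TPM in control libraries. In reads this was 9.37, 22.1 and 14.7 in tau libraries, against 1, 0 and 0 in control libraries. The fractions arose because reads were divided between the copies. The gene reached the minimum of 5 TPM only through its tau libraries, so its call and its rank among the genes tested are not independent of the filter. The log2 fold change was 3.63 (limma, adjusted p = 0.0133) and depends on the pseudocount, at 4.38 with 0.5 TPM and 1.89 with 5 TPM. It was called whichever control library was left out, but not without tau library 1 (adjusted p = 0.0902), 2 (adjusted p = 0.150) or 3 (adjusted p = 0.147). The partner gene Cyp12d1-p was at 8.22, 4.43 and 4.15 TPM in tau libraries and 5.49, 3.95 and 6.98 TPM in control libraries, which overlapped. Because reads of such copies can be assigned to either gene, the sum of the pair is the firmer value. It was 21.9, 21.1 and 18.5 TPM in tau libraries, against 6.59, 3.95 and 6.98 TPM in control libraries (difference 1.68 on the log2 scale, two-sided exact permutation p = 0.1, the smallest possible). The sum was thus 3.51 times the control level and did not overlap. The copy number of this pair also differs between fly strains and was not measured here.

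**Figure D3:**
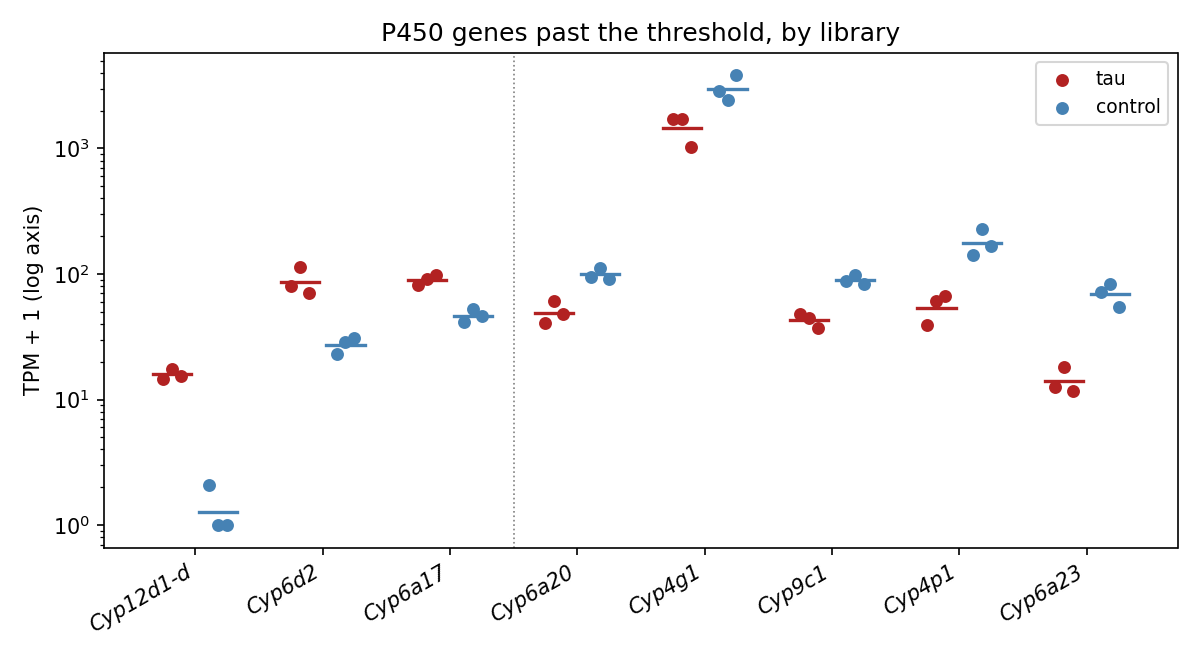
TPM + 1 (vertical axis, log scale) of the 8 P450 genes past the threshold, with a point for each library, tau left of control for each gene, and a bar at the mean on the log scale. The dotted line parts the 3 genes higher in tau heads from the 5 lower, and no gene has a tau library within the range of its control libraries.

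Among the mitochondrial P450 genes that met the symbol rule, 7 of 9 were tested, all of family 12. Of the 7, 6 had a log2 fold change above 0, where 54.7% of all genes lay below it. However, Cyp12a4, Cyp12b2 and Cyp12d1-p lay within 0.01 of 0. Cyp12c1 came close to the threshold. It was at 74.5, 48.9 and 43.9 TPM in tau libraries, against 20.9, 26.3 and 26.2 TPM in control libraries, with no overlap (log2 fold change 1.13 ± 0.25 SE, adjusted p = 0.0575 in limma). It passed after trimmed-mean scaling (adjusted p = 0.0483). Cyp12a4, known for resistance to the growth regulator lufenuron when overexpressed, was at 73.5 ± 14.2 TPM in tau heads and 74.4 ± 19.8 TPM in control heads (SD, n = 3 each). Its neighbour Cyp12a5 was the single member of the family below 0, with 11.7, 15.8 and 12.7 TPM in tau libraries, against 18.7, 25.0 and 22.7 TPM in control libraries (log2 fold change -0.68, adjusted p = 0.538 in limma).

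In the detoxification families, Cyp6g1, whose overexpression gives flies resistance to DDT and neonicotinoids, had the largest shift that was not called among genes above 100 TPM. It was at 80.4, 159 and 59.5 TPM in tau libraries, against 155, 251 and 244 TPM in control libraries. Tau library 2 lay just above the lowest control library, and the log2 fold change was -1.21 ± 0.30 (SE, adjusted p = 0.0947 in limma). Without tau library 2 it was -1.60 and passed (adjusted p = 0.00671). Cyp6a2, also known from insecticide-resistant strains, did not overlap in the other direction, at 19.0, 25.6 and 21.5 TPM in tau libraries, against 13.2, 9.21 and 14.0 TPM in control libraries (log2 fold change 0.82, adjusted p = 0.414 in limma). Cyp6a8, which is induced by barbiturates and caffeine, was at 7.31, 5.26 and 0.976 TPM in tau libraries, against 17.6, 9.21 and 12.2 TPM in control libraries. Its log2 fold change of -1.54 had an SE of 0.57 and was not called (adjusted p = 0.409 in limma). In family 6, 2 of 19 tested genes were called higher, beside 0.636% of all genes, and 2 were called lower, beside 0.446% of all genes.

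In family 4, 2 of 18 tested genes were called, both lower, beside 0.446% of all genes, and 13 of the 18 had a log2 fold change below 0, beside 54.7% of all genes. Besides the called genes, 5 did not overlap, all lower in tau heads, where 6.93% of all genes did not overlap and were lower. They were Cyp4e3 (83.1 ± 9.75 TPM in tau heads and 118 ± 18.2 TPM in control heads), Cyp4ac1, Cyp4d20, Cyp4d8 and Cyp4ac2. Cyp4d20 was at 42.4, 42.9 and 40.0 TPM in tau libraries and 53.8, 73.7 and 87.3 TPM in control libraries (log2 fold change -0.74, adjusted p = 0.204 in limma). In clan CYP2, Cyp305a1 was at 57.0, 66.2 and 68.3 TPM in tau libraries and 101, 118 and 97.7 TPM in control libraries, with no overlap (log2 fold change -0.72, adjusted p = 0.0883 in limma). Cyp18a1, which inactivates ecdysteroids by 26-hydroxylation, was at 14.4 ± 2.54 TPM in tau heads and 19.0 ± 4.38 TPM in control heads (SD, n = 3 each), with overlap.

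P450 genes often lie in tandem arrays, and neighbours in these arrays differed from each other. With neighbours defined as member genes at most 10000 bases apart, 45 of the 83 genes fell into 16 clusters. The longest, on chromosome arm 2R from 14871366 to 14903095, held 9 genes, of which 8 were tested. In order along the arm, the log2 fold changes were -0.30 for Cyp6a22, 0.96 for Cyp6a17, -2.31 for Cyp6a23, -0.56 for Cyp6a19, 0.09 for Cyp6a9, -1.02 for Cyp6a20, 0.04 for Cyp6a21 and -1.54 for Cyp6a8. Called genes of both directions stood beside genes whose levels overlapped, such as Cyp6a21, at 45.2 ± 7.33 TPM in tau heads and 43.8 ± 5.84 TPM in control heads (SD, n = 3 each). The summed level of the cluster was 281, 324 and 283 TPM in tau libraries, against 359, 430 and 351 TPM in control libraries. Arm 2R holds 34 of the 83 members, 28 of the 60 tested and 7 of the 8 called. The share of all called genes on this arm was not counted, so no result about the arm is read from this. Cyp4g1 lies on the X (467057 to 469335).

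**Figure D4:**
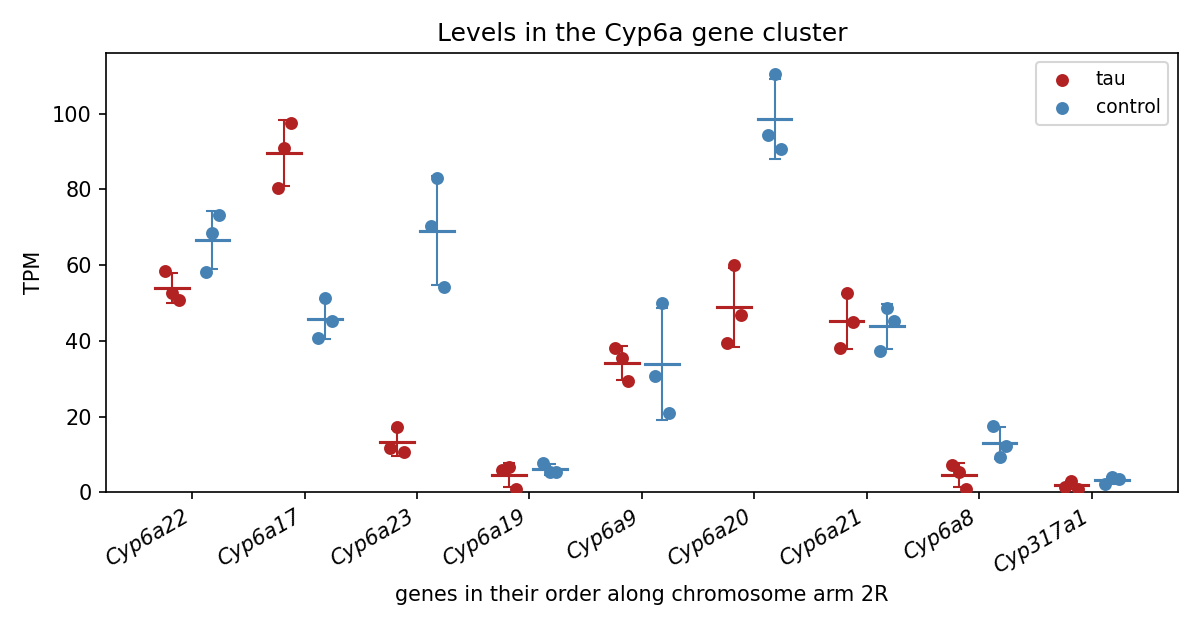
TPM (vertical axis) of the 9 genes of the 2R cluster in their order along the arm, with a point for each library, bars at the mean and SD, and tau left of control. Cyp6a17 is higher in tau libraries (80.4 to 97.6 TPM, against 40.6 to 51.3 TPM in control libraries), and the adjacent Cyp6a23 is lower (10.7 to 17.3 TPM, against 54.1 to 82.9 TPM in control libraries).

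At the level of isoforms, 57 of the 83 genes had a single listed isoform, so that both levels give the same values for them. The same minimum left 68 member isoforms. Of these 7 were called, 2 higher and 5 lower, beside 0.758% of all 12800 isoforms tested (0.492% higher and 0.266% lower), and 27 did not overlap, 10 higher and 17 lower, beside 13.4% of all isoforms (6.50% higher and 6.89% lower). They belong to the called genes other than Cyp6a17. Its main isoform Cyp6a17-RA was at 74.5, 88.0 and 92.7 TPM in tau libraries, against 39.5, 51.3 and 43.6 TPM in control libraries (adjusted p = 0.057 in limma). The minor isoform Cyp6a17-RB stood at 5.84, 3.01 and 4.88 TPM in tau libraries, against 1.10, 0 and 1.75 TPM in control libraries, under the minimum for a test. Both isoforms of Cyp12c1 were higher without overlap. Cyp12c1-RA was at 48.2, 36.1 and 31.2 TPM in tau libraries and 15.4, 21.1 and 22.7 TPM in control libraries, and Cyp12c1-RB was at 26.3, 12.8 and 12.7 TPM in tau libraries and 5.49, 5.26 and 3.49 TPM in control libraries. The share of Cyp12c1-RB in its gene was 30.1% ± 4.69 in tau heads and 19.9% ± 6.49 in control heads (SD, n = 3 each, two-sided exact permutation p = 0.2). Shares of an isoform were compared in 6 genes (Cyp12c1, Cyp4d2, Cyp4e2, Cyp4g15, Cyp6a14 and Cyp6a22), and their exact permutation p-values ran from 0.2 to 1. The 2 isoforms of Cyp6g1 carried the same values in every library and could not be told apart.

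Of 7 genes listed as electron donors 1 was called, beside 1.08% of all genes. Without overlap were 4, 2 higher and 2 lower in tau heads, beside 13.0% of all genes. Cpr, the reductase that serves the P450 enzymes of the endoplasmic reticulum, fell to 565, 656 and 465 TPM in tau libraries, against 937, 985 and 1002 TPM in control libraries. The groups did not overlap, and the log2 fold change was -0.81 ± 0.13 (SE, adjusted p = 0.0078 in limma). The call was lost without control library 3 (adjusted p = 0.081). For every 100 TPM of CYP2, CYP3 and CYP4 transcripts, heads held 9.34 ± 0.699 TPM of Cpr in tau and 11.4 ± 1.04 TPM in control (SD, n = 3 each). Cyt-b5-r is named cytochrome b5-related and is not the reductase of cytochrome b5. It was at 1743, 1775 and 1528 TPM in tau libraries, against 1909, 2609 and 2356 TPM in control libraries, with no overlap (log2 fold change -0.44, adjusted p = 0.139 in limma). CG3566, also on this list, lay in the opposite direction without overlap, at 187, 167 and 185 TPM in tau libraries, against 152, 140 and 124 TPM in control libraries (log2 fold change 0.38, adjusted p = 0.46 in limma). Cyt-b5 itself overlapped, at 703 ± 63.4 TPM in tau heads and 633 ± 10.4 TPM in control heads (SD, n = 3 each). On the mitochondrial side, the ferredoxin Fdx2 did not overlap, at 83.3, 63.9 and 68.3 TPM in tau libraries and 54.9, 54.0 and 59.3 TPM in control libraries (log2 fold change 0.34, adjusted p = 0.726 in limma), while the adrenodoxin reductase dare and Fdx1 overlapped at 5.24 to 19.0 TPM.

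**Figure D5:**
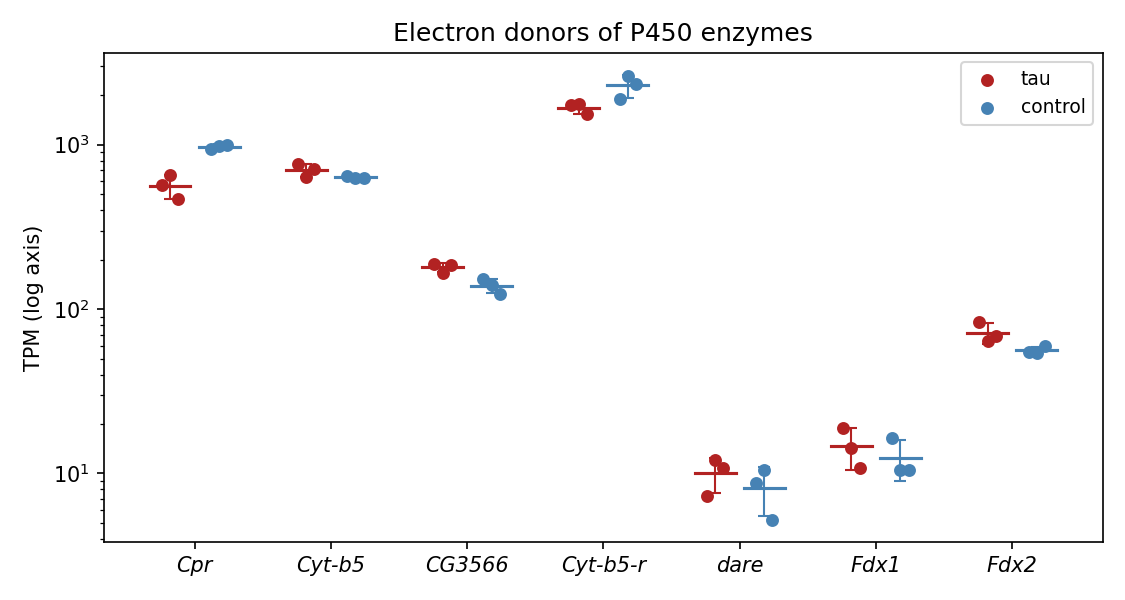
TPM (vertical axis, log scale) of the 7 genes listed as electron donors, with a point for each library, bars at the mean and SD, and tau left of control. Cpr is lower in tau libraries (465 to 656 TPM) than in control libraries (937 to 1002 TPM), and Cyt-b5-r is next, at 1528 to 1775 TPM in tau libraries and 1909 to 2609 TPM in control libraries.

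On further lists of genes around the P450 enzymes none was called, where 1.08% of all genes were. For lists this short, the absence of calls says little. None of the 7 heme synthesis genes tested passed, with log2 fold changes from -0.26 for Alas, the first enzyme of the pathway, to 0.44 for Uros1. None of 5 tested regulators of the response to foreign compounds passed. All 5 lay above 0, where 54.7% of all genes lay below it, from 0.14 for maf-S to 0.84 for cnc, the fly Nrf2. The level of cnc was 13.2, 25.6 and 29.3 TPM in tau libraries and 7.69, 27.6 and 6.98 TPM in control libraries, which overlapped. Of the UDP-glycosyltransferases, which conjugate P450 products, 18 of 35 were tested and none passed. The highest of them by fold was Ugt49B1, at 393, 387 and 281 TPM in tau libraries, against 156, 253 and 234 TPM in control libraries (log2 fold change 0.73, adjusted p = 0.124 in limma).

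Marker genes of further tissues, and yolk protein genes as markers of sex, were read beside these results. The 5 fat body markers summed to 1724 to 2153 TPM in tau heads and 2075 to 2339 TPM in control heads, and none was called. The 4 midgut markers summed to 1119 to 1568 TPM in tau libraries and 1769 to 3076 TPM in control libraries, with no overlap. All 4 lay below 0, as did 54.7% of all genes. Of the 4, betaTry, a trypsin, was called lower (log2 fold change -1.29, adjusted p = 0.00445 in limma), beside 0.446% of all genes. The 3 Malpighian tubule markers summed to 51.7 to 74.5 TPM in tau libraries and 34.9 to 52.7 TPM in control libraries. The 5 muscle markers summed to 676 to 819 TPM in tau libraries and 530 to 687 TPM in control libraries, and the 3 haemocyte markers to 105 to 121 TPM in tau libraries and 88.9 to 155 TPM in control libraries. Of the 3 yolk protein genes, Yp3 did not overlap and was lower in tau heads (adjusted p = 0.0879 in limma). The part of these differences in the P450 results was not tested.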

How the data were processed

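Day 10 heads of tau transgenic and control Drosophila were profiled by nanopore direct RNA sequencing (n = 3 each). The authors called bases with Guppy, aligned reads to the FlyBase transcriptome with minimap2 and deposited TPM per isoform from NanoCount. Beside TPM, the authors deposited for tau against control a mean signal, a log2 fold change with its error, a test score and p-values, and these were not used. The short-read control samples were not analysed here.

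TPM was summed per gene (37 isoforms listed with no gene ID took it from the Ensembl release 115 annotation, which also gave coordinates). Reads per library were found by taking the most frequent isoform value above 0 as 1 read. Gene sums were whole within 0.01 reads for 94.8% to 95.4% of genes above 0. Features with a mean of at least 5 TPM were fitted on log2(TPM + 1) with limma 3.58.1 (R 4.3.3, eBayes with trend), with genotype as the only term. Fold changes are on that scale, which understates those of low genes. P-values were adjusted by Benjamini-Hochberg over all features tested. Values of pairs and isoform shares were compared by two-sided exact permutation tests in Python 3.11.15. Named genes were those called, those without overlap at a log2 fold change of 1 or more in size, the 10 highest means and the pairs Cyp6a17 and Cyp6a23, Cyp12d1-p and Cyp12d1-d. Others, such as Cyp6g1, were chosen after their values were seen. Members and lists were chosen with earlier results of these data known. Of the listed symbols, Updo, desatF, roX1 and roX2 were not matched. Alternatives varied the pseudocount, filter, scaling, trend, replicate block and libraries.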

Additional observations from a re-analysis of the deposited data

How the results depend on the processing

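Depth limits the low genes, since 3 reads were worth up to 5.24 TPM, and 3 libraries per genotype limit the calls. For P450 genes, 8 calls (3 higher, 5 lower) became 5 with no filter (3 lower), beside 0.323% of all genes. Without the trend 1 was left (1 higher, 0 lower), beside 0.0446% of all genes, with 19 members at an unadjusted p under 0.05 in limma. The replicate block left 4 (2 lower), beside 0.859% of all genes. Deviations of same-numbered libraries had correlations of -0.0025, 0.0652 and -0.0719, and those of differently numbered libraries ran from -0.145 to 0.158. With 3 libraries per genotype these values cannot show whether the numbers pair the samples. Leaving out a library gave 4 to 8 calls, 1 to 3 higher and 2 to 6 lower, beside 0.357% to 1.12% of all genes called. For isoforms, 7 calls (2 higher, 5 lower) became 0 with no filter (26 at an unadjusted p under 0.05 in limma), as did those of all isoforms. Trimmed-mean scaling left 4 (2 lower), beside 0.609% of all isoforms. Without the trend 1 was left (1 higher, 0 lower), beside 0.0391% of all isoforms. A pseudocount of 0.5 TPM left 1 isoform higher. Leaving out a library gave 2 to 7 calls, 1 to 2 higher and 1 to 6 lower, beside 0.195% to 0.773% of all isoforms called. Trimmed-mean scaling moved the median log2 fold change of all genes to 0.02, against -0.04 as deposited. The cause was not tested. None of the 8 called genes changed direction under any of these settings.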
